A study of Mus musculus with 10 samples.

Results

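Islet transcription factors were followed in 10 RNA sequencing libraries of mouse pancreatic islets, the clusters of hormone-secreting cells of the pancreas. The set holds 10 genes of the 24475 in the deposited table, chosen by symbol as factors of beta cell identity (Mafa, Pdx1, Nkx6-1) or of islet endocrine cells in general (Nkx2-2, Pax6, Neurod1, Isl1, Insm1, Foxa2, Rfx6). All 10 were found, and all 10 passed the filter on low values. All animals were C57BL/6 mice. In 5 libraries they had received the glucagon receptor (GCGR) blocking antibody REGN1193, and in the other 5 the isotype control antibody. The labels give no dose, duration, age, sex or batch, and do not say whether each library is a separate animal, so p-values speak only to the spread among the libraries at hand. The study concerns alpha cell hyperplasia under receptor blockade, and the comparison here asks whether factors of beta cells and of endocrine cells in general differ with it.

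These proteins bind regulatory DNA of hormone and secretory genes and keep endocrine cells in their identity. Mafa, a basic leucine zipper factor, activates the insulin genes and marks mature beta cells. Pdx1, a homeodomain factor, is needed to form the pancreas and later drives insulin transcription, and Nkx6-1, also a homeodomain factor, maintains beta cells and represses alpha cell genes. The others act in several islet cell types, alpha cells included.

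The libraries carried the islet hormone genes. Summed over 6 beta cell markers the level ran from 198587 to 355929 RPKM (reads per kilobase of transcript, scaled to library size) with the antibody and from 298009 to 471622 RPKM with the isotype control. Over 8 alpha cell markers it ran from 55143 to 84242 RPKM and from 10181 to 18162 RPKM. Over 12 acinar markers, genes of the enzyme-making cells around islets, it ran from 4196 to 13504 RPKM and from 3219 to 18493 RPKM. Estimated depth was 14.5 to 17.9 megareads in the antibody libraries and 12.3 to 14.8 megareads in the isotype libraries. At that depth, counted on the shortest transcript of each gene, the thinnest value of Nkx2-2 rested on about 603 reads and that of Mafa on about 4593 reads. The counting error at those points was 4.07% and 1.48%, below the 14.4% and 15.1% by which the 5 isotype libraries differed (coefficient of variation). The spread between libraries was thus larger than the counting error.

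None of the 10 factors passed the test over all genes. The beta cell factor Mafa was the member with the largest difference. Its mean was 116 ± 13.4 RPKM under GCGR blockade against 170 ± 25.7 RPKM in isotype libraries (SD, n = 5 each), and it was the member whose groups did not overlap. The other beta cell factors had lower means with the antibody, and Isl1, a factor shared by several endocrine types, had a higher one. Nkx2-2, Pax6, Neurod1, Foxa2 and Rfx6 had mean folds within 5% of 1. With limma, 0 of 10 members were called at an adjusted p under 0.05, where 0.409% of the 13450 tested genes were called. At an unadjusted limma p under 0.05 there were 2 of 10, Mafa and Isl1, where 7.02% of all tested genes were. The exact permutation test over libraries also put Mafa and Isl1, 2 members, under 0.05, where it put 7.14% of all tested genes; without antibody replicate 4 it put 4 there, with Nkx6-1 and Insm1 added, where 8.45% of all tested genes were. The median log2 fold change was -0.43 over the 3 beta cell factors and 0.05 over the 7 general factors, beside -0.07 over all tested genes.

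**Figure D1:**
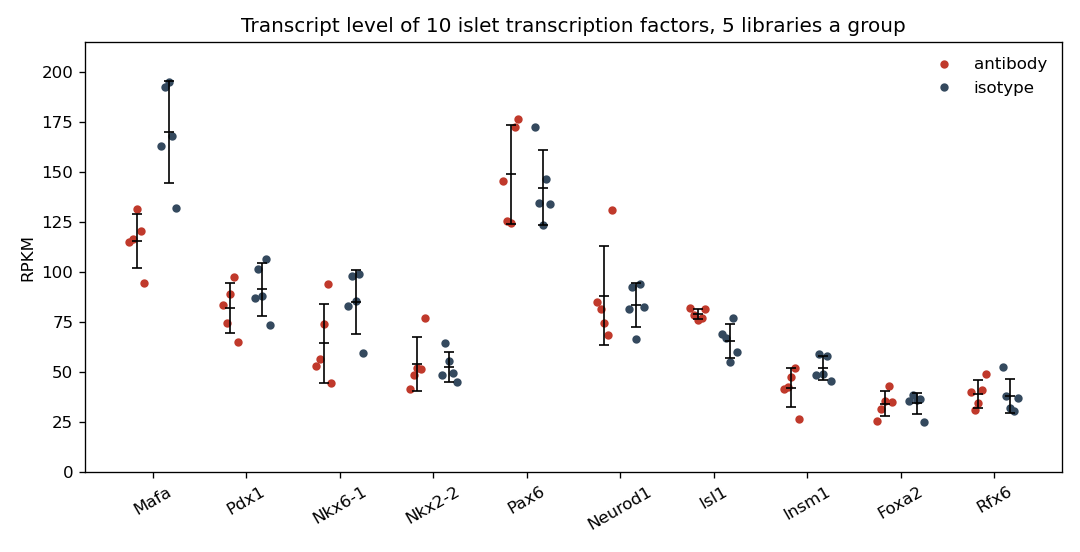
Transcript level in RPKM (linear axis from 0) of the 10 factors in each library, antibody in red and isotype control in dark blue, with the mean and SD of 5 libraries as black bars. The groups of Mafa do not overlap, those of Isl1 overlap through 1 high isotype library, and the remaining members overlap widely.

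Mafa was measured at 115, 117, 132, 120 and 94.8 RPKM in antibody replicates 1 to 5. In isotype replicates 6 to 10 it was at 163, 193, 195, 168 and 132 RPKM. Every antibody library lay below every isotype library, by 131.7 against 132.03 RPKM at the closest point, antibody replicate 3 and isotype replicate 10. Among all tested genes, 0.84% had antibody libraries wholly below the isotype libraries. The log2 fold change was -0.55 (SE 0.13, 95% confidence interval -0.84 to -0.26), a level lower by 31.6%. Its limma adjusted p was 0.187, and the two-sided exact permutation p was 0.00794, the smallest that 5 against 5 allows and not adjusted for other genes. After median centring of the libraries the groups overlapped (-0.47, exact permutation p = 0.0317). Isotype replicate 10 was the lowest of its group; without it the log2 fold change was -0.64 (limma adjusted p = 0.0831). All 12 acinar markers also had negative folds (median -0.57 on the log2 scale), and 0 of them passed with limma. With the acinar level as a covariate Mafa was at -0.57 (limma adjusted p = 0.183).

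In a bulk library, fewer cells of a type, less RNA per cell and more RNA from other cells cannot be told apart. Beta cell genes taught as targets of Mafa, Pdx1, Nkx6-1 or Neurod1 were listed as well. Of 19 tested, 15 had folds below 0 (median -0.21 on the log2 scale), where 66.5% of all tested genes did. With limma 0 of the 19 passed. Ins2, an insulin gene and the highest of that list, was at 198268 ± 38044 against 271683 ± 60060 RPKM (SD, n = 5 each), a difference of -0.45 on the log2 scale (SE 0.37). The limma SE of Ins2 changed with the filter at the same fold. It was 0.24 at a minimum mean of 5 RPKM (limma adjusted p = 0.876) and 8.30 without a filter. Glp1r, the receptor for the incretin GLP-1, differed by -0.48 (SE 0.21) on that scale, the cation channel gene Trpm5 by -0.76 (SE 0.29) and the pyruvate carboxylase gene Pcx by -0.43 (SE 0.19). Nnat, which encodes the small membrane protein neuronatin, stood on the other side at 0.45 (SE 0.20).

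Relative to the mean log2 level of 9 beta cell effector genes in the same library, Mafa differed by -0.16 (SE 0.17, limma adjusted p = 0.453), less than the spread between libraries. All 9 belong to the list of target genes above, so this reference is not separate from the members. That reference moved the median of all tested genes to 0.32. It shifts all genes of a library by the same amount, so the distance of Mafa from the median gene could not change. Relative to 12 pan-endocrine secretory genes, such as chromogranin A and secretogranins, Mafa fell by 0.72 on the log2 scale (SE 0.11) and passed (limma adjusted p = 0.0179). Calls in that direction made up 0.0223% of all tested genes, and the median of all genes was -0.23. Of the 12 secretory genes, 9 had positive folds on unscaled RPKM and 3 negative ones (median 0.14 on the log2 scale). Their mean level was thus higher with the antibody, and this reference lowered the fold of every gene. The call on Mafa turned on the reference level. With weights that count outlying libraries less, Mafa also passed at a nearly equal fold (-0.55, SE 0.10, limma adjusted p = 0.0226), where 0.454% of tested genes were called lower. These 2 settings were the ones in which any of the 10 members passed with limma, out of 24 alternatives. The exact permutation test shifted with the reference too, for members and for all genes alike. Relative to the beta cell effector genes it put Pax6, Isl1 and Foxa2 under 0.05, all higher, and Mafa at 0.23, where 17.7% of all tested genes were under 0.05 and higher. Relative to the secretory genes it put Mafa, Pdx1, Nkx6-1 and Insm1 under 0.05, all lower, where 18.4% of all tested genes were under 0.05 and lower.

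**Figure D2:**
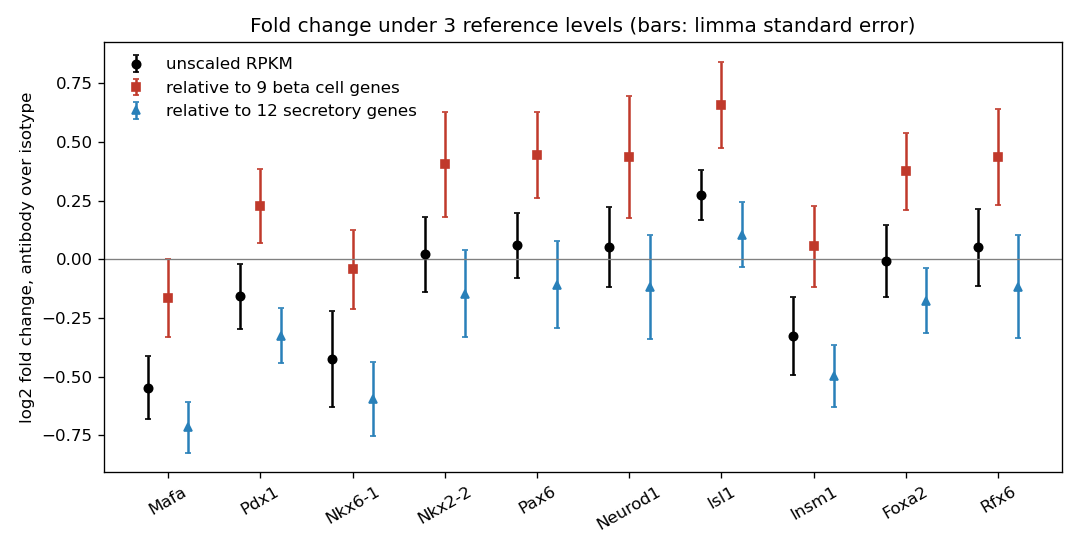
Log2 fold change of the antibody over the isotype control for each factor, on unscaled RPKM (black), relative to 9 beta cell effector genes (red) and relative to 12 secretory genes (blue), with limma's standard error as bars. Mafa is below 0 under each reference (-0.55, -0.16 and -0.72) and Isl1 above 0 under each (0.27, 0.66 and 0.11).

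The other beta cell factors were less clear. Nkx6-1 was at 53.0, 56.6, 74.1, 94.1 and 44.8 RPKM in the antibody libraries and at 83.3, 97.9, 85.6, 99.3 and 59.8 RPKM in the isotype libraries. The groups overlapped, since antibody replicate 4 was among the high libraries and isotype replicate 10 among the low ones. The log2 fold change was -0.43 (SE 0.20, 95% confidence interval -0.87 to 0.02, limma adjusted p = 0.725). Relative to the beta cell effector genes it was -0.04 (SE 0.17). Pdx1 ran from 65.3 to 97.8 RPKM with a median of 83.4 under the antibody, and from 73.4 to 106.8 RPKM with a median of 88.0 under the isotype control. The difference, -0.16 on the log2 scale (SE 0.14, limma adjusted p = 0.867), was smaller than the spread between libraries, and it turned to 0.23 relative to the beta cell effector genes.

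Isl1, a LIM-homeodomain factor needed for the maturation of beta, alpha and delta cells, had its difference in the other direction from Mafa. Its levels were 81.9, 78.8, 76.3, 77.3 and 81.5 RPKM with the antibody and 69.2, 67.1, 55.1, 77.3 and 60.2 RPKM with the isotype control. Isotype replicate 9 reached the level of the antibody libraries, while the other 4 isotype libraries were below all of them. The antibody libraries were close together, with a coefficient of variation of 3.13% against 13.0% in the isotype libraries. The log2 fold change was 0.27 (SE 0.11, 95% confidence interval 0.04 to 0.51), with a limma adjusted p of 0.603 and a two-sided exact permutation p of 0.0238, not adjusted. After median centring no antibody library overlapped an isotype library (0.35, exact permutation p = 0.00794, limma adjusted p = 0.327). That exact permutation p is the smallest the test allows and is not adjusted for other genes. How many of all tested genes had groups apart under that scaling was not counted. Relative to the beta cell effector genes the log2 fold change of Isl1 was 0.66 (limma adjusted p = 0.131), and relative to the secretory genes 0.11 (limma adjusted p = 0.628). Markers of delta and pancreatic polypeptide cells lay in the same direction: the 4 delta markers had positive folds with a median of 0.70 on the log2 scale (Sst, the somatostatin gene, at 0.92 and Rbp4 at 0.95) and the 2 pancreatic polypeptide cell markers a median of 0.72, and 0 of these 6 passed with limma. Summed, the delta markers ran from 3701 to 9711 RPKM with the antibody and from 2047 to 4969 RPKM with the isotype control. The sum over the pancreatic polypeptide cell markers ran from 4111 to 12901 and from 3173 to 6339 RPKM. The 8 alpha cell markers also had positive folds, with a median of 1.18 on the log2 scale. With limma 7 of these 8 were called higher, where 0.394% of all tested genes were. The part of these cell types in the Isl1 level was not tested.

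Insm1, a zinc finger factor of endocrine differentiation, was at 41.7, 42.6, 47.8, 52.3 and 26.8 RPKM with the antibody. In the isotype libraries it was at 48.7, 59.0, 49.0, 58.3 and 45.8 RPKM. The groups overlapped, and the low value came from antibody replicate 5. The log2 fold change was -0.33, with a 95% confidence interval from -0.69 to 0.04 (limma adjusted p = 0.756). Without that library it was -0.18. Among the general factors it was the 1 whose difference exceeded 0.1 on the log2 scale downward.

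The remaining 5 general factors had intervals around 0. Pax6, a paired-domain and homeodomain factor active in every islet endocrine type, was at 149 ± 24.8 against 142 ± 18.7 RPKM (SD, n = 5 per group; log2 difference 0.06, 95% confidence interval -0.24 to 0.36). Neurod1, a basic helix-loop-helix factor that binds the insulin promoter, ran from 68.7 to 131.1 RPKM with the antibody and from 66.5 to 94.0 RPKM with the isotype control (log2 fold change 0.05, interval -0.32 to 0.42). Nkx2-2, a homeodomain factor of endocrine lineages, ran from 41.7 to 77.0 RPKM and from 45.1 to 64.5 RPKM (0.02, interval -0.33 to 0.37). Foxa2, a forkhead factor that opens chromatin, ran from 25.8 to 43.1 RPKM and from 25.3 to 38.5 RPKM (-0.01, interval -0.34 to 0.33). Rfx6, a winged-helix factor needed to form most islet cell types, ran from 31.1 to 49.3 RPKM and from 30.6 to 52.5 RPKM (0.05, interval -0.31 to 0.41). Over these factors the intervals reached from -0.34 to 0.42 on the log2 scale, so equal levels were not shown.

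RPKM is scaled by length, so levels can also be ordered between genes, as far as the lengths used were right. Those lengths are not known here. The listed transcripts of Nkx2-2 run from 1053 to 2120 bases, so its place in the order is less sure. In the isotype libraries the order of the means was Mafa, Pax6, Pdx1, Nkx6-1, Neurod1, Isl1, Nkx2-2, Insm1, Rfx6 and Foxa2, from 170 to 34.4 RPKM. The ranges of neighbours were apart between Pax6 and Pdx1, and every other neighbouring pair had overlapping ranges. Nkx2-2 and Insm1 differed little (52.7 ± 7.58 and 52.2 ± 6.04 RPKM), as did Rfx6 and Foxa2 (38.1 ± 8.69 and 34.4 ± 5.22 RPKM, SD, n = 5 each). With the antibody the order was Pax6, Mafa, Neurod1, Pdx1, Isl1, Nkx6-1, Nkx2-2, Insm1, Rfx6 and Foxa2, from 149 to 34.3 RPKM, and no neighbours had separate ranges. All members were among the more abundant transcripts: the lowest single value, of Foxa2, was above 80.2% of the tested genes in its library, and the lowest of Pax6 was above 96.8%.

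Ratios within a library do not depend on how that library was scaled. Mafa exceeded Pax6 in 3 of 5 isotype libraries and in 1 of 5 antibody libraries. The ratio of Mafa to Isl1 was 1.40, 1.48, 1.73, 1.56 and 1.16 in the antibody libraries and 2.35, 2.87, 3.54, 2.17 and 2.19 in the isotype libraries, with no overlap. The ratio of Mafa to Pdx1 had a mean of 1.42 ± 0.125 under blockade and 1.87 ± 0.231 in isotype libraries (SD, n = 5 each), again without overlap, though 1.564 in antibody replicate 2 nearly met 1.573 in isotype replicate 9. Mafa to Nkx2-2 and Mafa to Foxa2 were also lower in every antibody library. In total 4 of the 9 ratios did not overlap, and so did 16% of the ratios of Mafa to all other tested genes (taken on the log2 scale with the pseudocount). These ratios share Mafa and are not separate results. The ratio to Nkx6-1 overlapped widely (1.88 ± 0.369 and 2.02 ± 0.233, SD, n = 5 each).

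**Figure D3:**
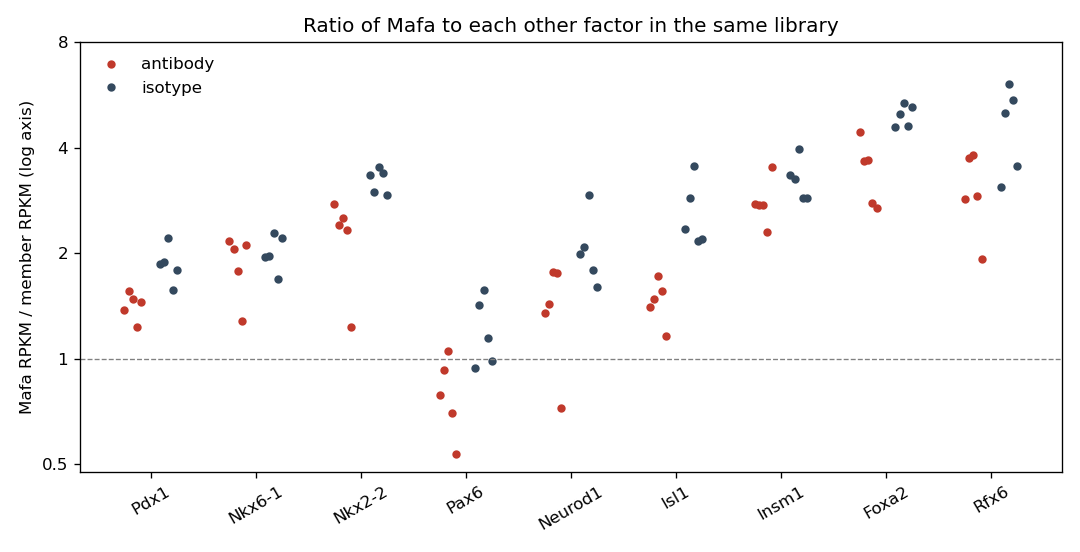
Ratio of Mafa RPKM to the RPKM of each other factor in the same library (log axis), antibody in red, isotype control in dark blue, dashed line at equal levels. Red and blue points are apart for Pdx1, Nkx2-2, Isl1 and Foxa2, and overlap for Nkx6-1, Pax6, Neurod1, Insm1 and Rfx6.

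Single libraries moved members in opposite directions. Antibody replicate 5 was the lowest antibody library for Mafa, Pdx1, Nkx6-1 and Insm1 and the highest for Nkx2-2, Pax6, Neurod1 and Rfx6, so it stood at an end of its group for 8 of 10 members. Neurod1 was at 131 RPKM there, 1.69 times the mean of the other 4 antibody libraries, and Insm1 at 0.58 times that mean. Isotype replicate 10 was the lowest isotype library for 6 members (Mafa, Pdx1, Nkx6-1, Nkx2-2, Insm1, Foxa2) and the highest for 0. How often these libraries stood at an end of their group over all tested genes was not counted. The mean log2 level of the beta cell effector genes was also lowest in these libraries within their groups (9.78 and 10.15). That of the secretory genes was lowest there too (8.22 and 8.05). The acinar level was the highest of the antibody libraries in antibody replicate 5 (9.73). The median log2 level of all tested genes was the lowest of the antibody libraries in antibody replicate 5 (2.93). In isotype replicate 10 it was the highest of the isotype libraries (3.16). The part of these levels in the member values was not tested. Leaving both libraries out gave a log2 fold change of -0.57 for Mafa (limma adjusted p = 0.0582) and 0.23 for Isl1 (limma adjusted p = 0.737). Without antibody replicate 5 the folds of Nkx2-2, Pax6, Neurod1 and Rfx6 were slightly below 0, at -0.11, -0.0046, -0.10 and -0.03.

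**Figure D4:**
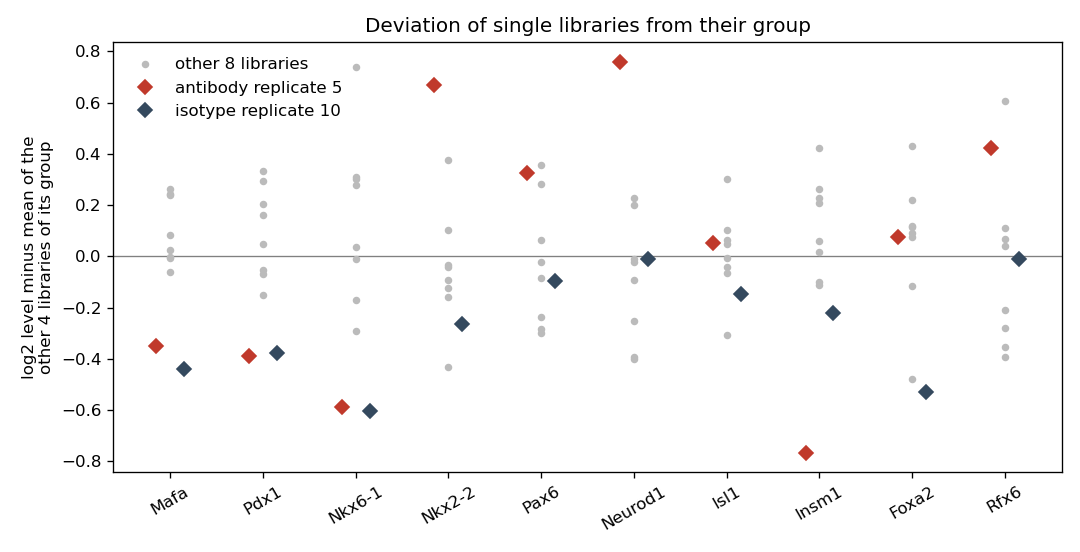
Log2 level of each factor in a library minus the mean of the other 4 libraries of its group. Antibody replicate 5 (red diamonds) lies at 0.76 for Neurod1 and -0.77 for Insm1, and isotype replicate 10 (dark blue diamonds) at -0.53 for Foxa2; grey points are the other 8 libraries.

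Paralogs of the members were mostly low. Of 26 listed paralogs 12 were tested, and 0 of them passed with limma, while 1, Rfx5, had an unadjusted p under 0.05. Mafg, a small Maf protein gene and the highest of the list, was at 18.5 ± 3.69 against 20.1 ± 4.59 RPKM (SD, n = 5 per group; log2 difference -0.11, SE 0.17). Foxa3 was the nearest relative of Foxa2 in level (4.75 to 7.35 RPKM with the antibody, 5.76 to 7.32 RPKM with the isotype control), while Foxa1 reached at most 0.343 RPKM. Among RFX genes, Rfx5 was at 13.1 ± 1.91 and 10.6 ± 1.13 RPKM (SD, n = 5 per group; log2 difference 0.29, SE 0.12), and Rfx6 exceeded it 3.01-fold and 3.61-fold by the group means. Pax4, the paralog of Pax6 that acts in endocrine progenitors, was listed at 0 in all 10 libraries.

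Of 5 tested alpha cell transcription factor genes, 2 rose with limma (0.394% of all tested genes did), namely Irx1 (log2 fold change 1.20, SE 0.23) and Irx2 (1.16, SE 0.17), and the list median was 1.02. Irx1 was close to the threshold (limma adjusted p = 0.0492) and lost its call in 14 of 23 alternatives (limma adjusted p up to 0.17), among them leaving out any 1 antibody library or isotype replicate 6, 9 or 10. Irx2 passed in all 24 alternatives. Hhex, the delta cell factor, was at 10.5 ± 2.38 against 7.34 ± 1.19 RPKM (SD, n = 5 per group; log2 difference 0.48, SE 0.17, limma adjusted p = 0.547). Of 28 tested partners and cofactors of the members, 0 passed with limma, and the median log2 fold change was -0.04. They included Rcor1, a corepressor recruited by Insm1 (-0.16, SE 0.09), and Spop, an adaptor that marks Pdx1 for degradation (-0.20, SE 0.13). Of 23 other islet regulators, 0 passed with limma, with a median of -0.03. Ptf1a, the acinar factor, had the smallest p there (0.515 ± 0.189 against 3.14 ± 2.45 RPKM, SD, n = 5 each; -1.64, SE 0.35, limma adjusted p = 0.111), and the next smallest p belonged to the ETS factor gene Etv1 (0.80, SE 0.18, limma adjusted p = 0.134). Mlxipl, which encodes the glucose-responsive factor ChREBP and was the highest of that list, was at 61.6 ± 25.5 against 67.1 ± 12.4 RPKM (SD, n = 5 each).

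A search covered the 8384 genes averaging 5 RPKM or more. Those whose pattern over the 10 libraries was most like that of Mafa were Spock1, a proteoglycan gene (Pearson r = 0.942), the adaptor gene Shc1 (0.917), Acly, which makes cytosolic acetyl-CoA (0.915), the kinase gene Gsk3a (0.904) and the glutathione-degrading enzyme gene Chac1 (0.899). With the group means removed, r for these genes ran from 0.726 for Acly to 0.918 for Spock1. The genes most like Rfx6 were Zfp949 (r = 0.948), Jade3 (0.932), 2610008E11Rik (0.915), Pcmtd1 (0.897) and Senp7 (0.893). These values are the highest of 8384 over 10 points that share library and scaling, and are given as a description.

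In GRCm38.p6, the RefSeq assembly of the build the submitters name, 5 of the 10 members lie on chromosome 2. Insm1 (146221997 to 146225020), Nkx2-2 (147176485 to 147195434) and Foxa2 (148042877 to 148046969) fall within 1.82 megabases, and Pax6 (105668896 to 105698410) and Neurod1 (79452637 to 79456636) lie apart from them. The log2 fold changes of the 3 neighbours were -0.33, 0.02 and -0.01. Pdx1 (147270097 to 147275848) and Nkx6-1 (101659184 to 101664711) are on chromosome 5, Mafa (75745501 to 75748321) on chromosome 15, Isl1 (116298270 to 116309688) on chromosome 13 and Rfx6 (51677760 to 51730429) on chromosome 10. The library kit does not mark strand, so reads of overlapping genes cannot be told apart where exons coincide. The long noncoding RNA gene Plut (2210019I11Rik in the table) shares 1425 bases with the start of Pdx1. It was at 12.7 ± 2.95 against 19.2 ± 6.04 RPKM (SD, n = 5 per group; log2 difference -0.55, SE 0.21, limma adjusted p = 0.597), and it was looked at after the overlap was found. Pax6 overlaps Pax6os1 (7.75 ± 2.34 and 9.03 ± 3.13 RPKM, SD, n = 5 each) and the end of Elp4, and Nkx2-2 overlaps Nkx2-2os and 6430503K07Rik, all far below the members in level.

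The RefSeq table of sequences before gene starts (GRCm38.p6) held 8 of the 10 members, in 11 entries; Mafa and Insm1 had none. Shown here are the 250 bases before the start of the 3 members with an entry and the smallest limma p, a choice that rests on the transcript levels above. Capitals mark motifs of the kinds of factor in the set: TAAT, the homeodomain core, CANNTG, the E-box bound by Neurod1 and its relatives, TGTTTAC of forkhead factors, and TGCTGA of Maf factors, searched on both strands. Each is written 5′ to 3′ on the strand of the gene: Isl1 at chr13:116309689-116309938 (minus strand), Nkx6-1 at chr5:101664712-101664961 (minus strand) and Pdx1 at chr5:147269847-147270096 (plus strand).
Isl1: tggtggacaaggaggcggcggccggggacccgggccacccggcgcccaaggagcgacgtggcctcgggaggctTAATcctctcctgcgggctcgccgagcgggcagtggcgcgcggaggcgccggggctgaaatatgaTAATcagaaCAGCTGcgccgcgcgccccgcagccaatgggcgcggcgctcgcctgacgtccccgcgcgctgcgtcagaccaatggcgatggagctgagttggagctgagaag
Nkx6-1: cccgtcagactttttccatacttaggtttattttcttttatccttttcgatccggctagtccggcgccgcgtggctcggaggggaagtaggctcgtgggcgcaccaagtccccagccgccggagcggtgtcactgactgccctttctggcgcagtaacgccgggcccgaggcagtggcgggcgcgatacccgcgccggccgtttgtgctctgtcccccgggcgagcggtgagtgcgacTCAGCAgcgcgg
Pdx1: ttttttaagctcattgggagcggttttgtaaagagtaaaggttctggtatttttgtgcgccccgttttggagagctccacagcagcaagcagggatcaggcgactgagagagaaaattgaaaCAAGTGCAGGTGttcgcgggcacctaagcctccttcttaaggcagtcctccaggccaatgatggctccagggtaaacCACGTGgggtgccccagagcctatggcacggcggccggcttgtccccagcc

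Isl1 held 2 homeodomain cores, 177 and 112 bases before the start, and an E-box. Pdx1 held 3 E-boxes and no homeodomain core, and the annotated span of Plut covers this window. Nkx6-1 held a Maf motif 12 bases before the start. TAAT occurred in 54.9% of all 32851 such windows and in 7 of the 11 of the members, CANNTG in 66.2% and in 6 of 11, TGCTGA in 16.1% and in 3 of 11, and TGTTTAC in 3.17% and in 0 of 11. A match is a run of letters and not a measured binding site. The Isl1 window was rich in G and C (71.2%, where the median of all windows was 52.4%), and that of Nkx6-1 was at 65.2%.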

How the data were processed

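The authors deposited 1 table of RPKM values for 24475 genes in 10 libraries; polyA RNA went into Nextera XT libraries, per the labels' protocols. The submitters' processing notes list GRCm38, mm10, CASAVA 1.8.2 and FastQC; for the aligner, counting program and annotation a name is not given in the sources used here. RPKM values were used as log2(RPKM + 0.5), unscaled, for the 13450 genes averaging 0.5 RPKM or more. Fold changes on that scale are understated near 0.5 RPKM. The test between groups was limma 3.58.1 (R 4.3.3, variance trend, Benjamini-Hochberg adjustment over all tested genes, threshold 0.05), tested on simulated data first. Single members were also compared by a two-sided exact permutation test over 252 assignments, unadjusted. Megareads were estimated from steps of low RPKM values with GENCODE M21 lengths; 71.1% to 75.7% of the low values in a library were no more than 0.1 from a whole read, and the step was fitted to the same values. Members and lists were chosen with earlier results of these data known. Some genes of the lists are not reported here and were left out of the lists' counts and medians; they stayed in the fit over all genes. Named genes are the 10 members, up to 4 members with the smallest p and the highest member of each list, every called list member, and the 5 genes most like Mafa and Rfx6. Other names (Foxa1, Pax4 and genes overlapping a member) were chosen after their values were seen. Alternatives were other pseudocounts, filters, scalings, reference levels, covariates and weights, and leaving out libraries. Python 3.11.15 and matplotlib 3.10.9 drew the plots.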

Additional observations from a re-analysis of the deposited data

Results flagged for a closer look

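Of 20 groups of 5 libraries checked (10 members, antibody and isotype), 2 held a library whose gap to its nearest neighbour was over 0.71 of the group's range. Chance alone gives such a gap in about 1 of 20 independent groups, but these groups come from the same libraries. The gaps were taken on RPKM and not on the log2 scale of the tests. On that log2 scale the gap of Neurod1 named below falls under 0.71 of the range, and that of Foxa2 stays over it. Neurod1 stood at 131 RPKM in antibody replicate 5, where the other 4 antibody libraries ran from 68.7 to 85.4 RPKM. Foxa2 stood at 25.3 RPKM in isotype replicate 10, where the other 4 isotype libraries ran from 35.5 to 38.5 RPKM.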

How the results depend on the processing

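No paired analysis was possible because the groups share no replicate numbers. The 24 alternatives per member gave 240 fold changes, of which 36 had the other sign, 2 gained a call (both Mafa, under the secretory reference and array weights) and 202 kept direction and side of the threshold. Mafa and Nkx6-1 stayed negative and Isl1 positive in all 24. Foxa2 turned to 0.0687 with median centring, 0.0596 with quantile normalization, 0.0501 with trimmed mean scaling and 0.0225 with the acinar covariate. With the beta cell reference Pdx1 turned from -0.16 to 0.23, Insm1 from -0.33 to 0.0553 and Foxa2 from -0.01 to 0.38, with Mafa at -0.16 and the members' median at 0.39 (0.01 in the main analysis). With the secretory reference Nkx2-2 was at -0.15, Pax6 -0.11, Neurod1 -0.12, Rfx6 -0.12 and the members' median -0.16, with 1 member called lower. With array weights these were -0.15, -0.0463, -0.10, -0.0370 and -0.13, again with 1 member called lower. With the ductal covariate Pax6 and Rfx6 were at -0.0492 and -0.0541. Without antibody replicate 5 and isotype replicate 10 together Nkx2-2, Pax6, Neurod1, Rfx6 and the median were at -0.17, -0.0238, -0.10, -0.0347 and -0.14.

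Among the other genes named from the lists, Rcor1, Spop and Mlxipl turned to 0.23, 0.18 and 0.19 with the beta cell reference, and Ins2 was at 0 with quantile normalization. Hhex, Ptf1a and Etv1 passed in 2 alternatives each.

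With 1 library left out, Mafa ran from -0.64 to -0.48, Pdx1 from -0.23 to -0.0789 (without antibody replicate 5), Nkx6-1 from -0.57 to -0.31, Insm1 from -0.41 to -0.18 (without antibody replicate 5) and Isl1 from 0.21 to 0.33; Foxa2 ran from -0.11 to 0.0878, Nkx2-2 from -0.11 to 0.11, Pax6 from -0.0046 to 0.13, Neurod1 from -0.10 to 0.13 and Rfx6 from -0.0328 to 0.17. Over all genes 53 were called higher and 2 lower with limma. These counts were 23 and 0 at a minimum mean of 5 RPKM, 116 and 0 with the beta cell reference, and 121 and 61 with array weights, and 23 were higher with the secretory reference. The lower count was 1 without a filter or variance trend, 5 with quantile normalization, the acinar covariate or both libraries left out, and 6 with the ductal covariate. With 1 library left out 31 to 50 were higher and 0 (without antibody replicate 1) to 20 (without isotype replicate 6) lower. The cause of these shifts was not tested. The thinnest member value, of Nkx2-2, rested on about 603 reads on its shortest transcript, a counting error of 4.07%. Other effects of depth were not tested. The exact permutation test put 2 members under 0.05 in the main analysis, 4 with the secretory reference (Mafa, Pdx1, Nkx6-1, Insm1, lower), 3 with the beta cell reference (Pax6, Isl1, Foxa2, higher), and 2 to 4 with 1 library left out, the 4 (Mafa, Nkx6-1, Isl1, Insm1) without antibody replicate 4.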
